A study of Mus musculus with 12 samples.

Results

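The genes described here are 10 established markers of the loop of Henle and the distal nephron of the mouse kidney: Umod, Slc12a1, Kcnj1, Slc12a3, Pvalb, Trpm6, Calb1, Scnn1a, Scnn1b and Scnn1g. They were chosen by gene symbol, with earlier results of these data known, and are 10 of the 37681 genes in the deposited count table. All 10 passed the filter on low counts. RNAseq libraries had been made from a thin outer slice of kidney cortex of 6 male C57BL/6 mice aged 18 months, with both kidneys of each mouse sequenced separately. The 3 TG+ mice (43-29, 43-49 and 43-75) were TRACK mice, which carry the γ-HIF1αM3 transgene, a mutated and constitutively active HIF1α expressed from a proximal tubule promoter. The 3 TG- mice (43-26, 43-50 and 43-76) were wild type littermates without the transgene, and no mouse received a treatment. The transgene is thus directed to the segment upstream of the cells that express these markers, and the comparison asks how the markers of the later segments stood in kidneys whose proximal tubules carried active HIF1α. The counts of the 2 kidneys of a mouse were summed, so that n is 3 mice per genotype.

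The thick ascending limb of the loop of Henle reabsorbs sodium chloride without water and makes uromodulin, the most abundant protein of normal urine. The distal convoluted tubule that follows reabsorbs sodium chloride through a thiazide-sensitive cotransporter and takes up magnesium. The connecting tubule and collecting duct make the final adjustment of sodium under aldosterone through the epithelial sodium channel ENaC, which is built from α, β and γ subunits.

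Promoter sequences are shown for Umod and Slc12a1, whose levels moved together between the kidneys of a mouse, and for Scnn1b and Scnn1g, the neighbouring genes whose levels moved together and whose genotype groups did not overlap. Each run is the RefSeq promoter on GRCm38.p6 from 250 bases before to 50 bases after the RefSeq start of the gene, written 5′ to 3′ on the strand of the gene, with motif matches in capitals. The Umod window is chr7:119479213-119479512 (minus strand), the Slc12a1 window chr2:125152350-125152649 (plus strand), the Scnn1b window chr7:121864788-121865087 (plus strand) and the Scnn1g window chr7:121734229-121734528 (plus strand).
Umod: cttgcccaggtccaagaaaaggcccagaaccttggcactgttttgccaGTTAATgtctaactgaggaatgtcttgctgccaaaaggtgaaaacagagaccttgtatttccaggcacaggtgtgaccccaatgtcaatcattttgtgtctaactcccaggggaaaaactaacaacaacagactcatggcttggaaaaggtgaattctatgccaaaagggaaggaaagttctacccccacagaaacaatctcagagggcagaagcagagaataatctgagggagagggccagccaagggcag
Slc12a1: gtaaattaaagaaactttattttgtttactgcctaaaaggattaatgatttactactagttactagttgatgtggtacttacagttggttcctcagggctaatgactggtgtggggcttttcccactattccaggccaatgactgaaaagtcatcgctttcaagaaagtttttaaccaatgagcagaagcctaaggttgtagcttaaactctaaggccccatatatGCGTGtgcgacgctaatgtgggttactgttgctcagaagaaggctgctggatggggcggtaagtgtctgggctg
Scnn1b: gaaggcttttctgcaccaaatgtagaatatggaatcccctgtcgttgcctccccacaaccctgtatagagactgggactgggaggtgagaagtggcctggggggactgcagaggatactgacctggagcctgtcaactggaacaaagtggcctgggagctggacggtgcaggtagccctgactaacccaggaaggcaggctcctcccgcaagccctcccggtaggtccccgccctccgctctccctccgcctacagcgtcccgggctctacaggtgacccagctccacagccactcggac
Scnn1g: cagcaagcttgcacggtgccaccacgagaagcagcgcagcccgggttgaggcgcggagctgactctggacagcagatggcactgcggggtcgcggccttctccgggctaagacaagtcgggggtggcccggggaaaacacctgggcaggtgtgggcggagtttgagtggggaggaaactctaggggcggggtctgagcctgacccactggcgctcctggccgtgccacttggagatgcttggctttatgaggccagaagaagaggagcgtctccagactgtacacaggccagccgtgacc
The letters searched on both strands were ACGTG and GCGTG (cores of the hypoxia response element), GTTAAT (part of the HNF1 motif) and TGTTCT (part of the steroid hormone receptor motif). In 32851 RefSeq promoter windows of this length, ACGTG was present in 19.6%, GCGTG in 32.4%, GTTAAT in 7.10% and TGTTCT in 19.0%. RefSeq windows were found by symbol for 8 of the 10 markers (9 windows, 2 of them for Pvalb), and Scnn1a and Calb1 had no entry. ACGTG was in the windows of 0 of these 8 markers, GCGTG in those of 4 (Slc12a1, Kcnj1, Pvalb and Trpm6), GTTAAT in that of 1 (Umod) and TGTTCT in those of 2 (Kcnj1 and Pvalb). In the printed runs the capitals of Umod are GTTAAT, starting at -202 from the RefSeq start, and those of Slc12a1 are GCGTG, starting at -24. The GENCODE start of Slc12a1, 125152505, lies inside its window and upstream of this match, so the match is within the gene as GENCODE draws it. The windows of Scnn1b and Scnn1g held none of these letters.

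The libraries held between 21888584 and 33704850 reads in genes, or 48052131 to 60506785 per mouse, and the least abundant marker in any mouse, Pvalb, was still counted by 626 reads. Of 8 genes used to check the label TG+, the 7 HIF1α targets rose at an adjusted p below 0.05 and the log2 fold change of Hif1a itself was -0.12 (adjusted p = 0.343); whether reads of the transgene were counted there is not given in the sources used here. Of 15 proximal tubule genes, 8 fell and 0 rose at that limit, while 11 of 12 immune genes, 8 of 8 endothelial genes and 6 of 8 stroma genes rose. Of all genes tested, 15.4% were higher and 10.9% lower at that limit. Mouse 43-49 and kidney 1 of mouse 43-29 stood apart for some of the markers, and results that rest on them are given with and without them.

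None of the 10 markers changed by the threshold of the study, a fold change above 2 or below 0.5 with an adjusted p below 0.01 (edgeR quasi-likelihood test, Benjamini-Hochberg adjustment over 19399 genes), which 3.77% of all genes passed as higher and 0.211% as lower. At an adjusted p below 0.05 with no minimum fold, again 0 of 10 markers passed, against 15.4% of all genes higher and 10.9% lower. At an unadjusted p below 0.05 there were 2 markers, Scnn1b and Scnn1g, and DESeq2 called 0 markers at an adjusted p below 0.05. The log2 fold changes (TG+ over TG-) ran from -0.05 for Slc12a3 to 0.21 for Scnn1g. Of these, 8 were above 0 and 2 below 0, with a median of 0.05, beside a median of 0.01 over all genes tested. This tally depended on the setting. It was 3 above and 7 below without mouse 43-49, and 4 above and 6 below with kidney 1 of each mouse alone. With kidney 2 of each mouse alone, or with library size alone as the scale, all 10 were above 0. In the main fit, every one of the 10 intervals (95%) lay within a log2 fold change of -1 and 1. That is, a 2-fold change in either direction was outside each interval, and 8 of the intervals lay within -0.5 and 0.5. Smaller differences are not excluded by a p that misses the threshold. The gene bodies of Slc12a1, Scnn1b and Trpm6 overlap a gene on the other strand (Gm14002, Cog7 and Gm24190) outside their exons in GENCODE, and the strand setting of the counts is not given in the sources used here. In these bulk libraries, a change in the number of cells of a segment and a change in RNA per cell cannot be told apart.

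**Figure D1:**
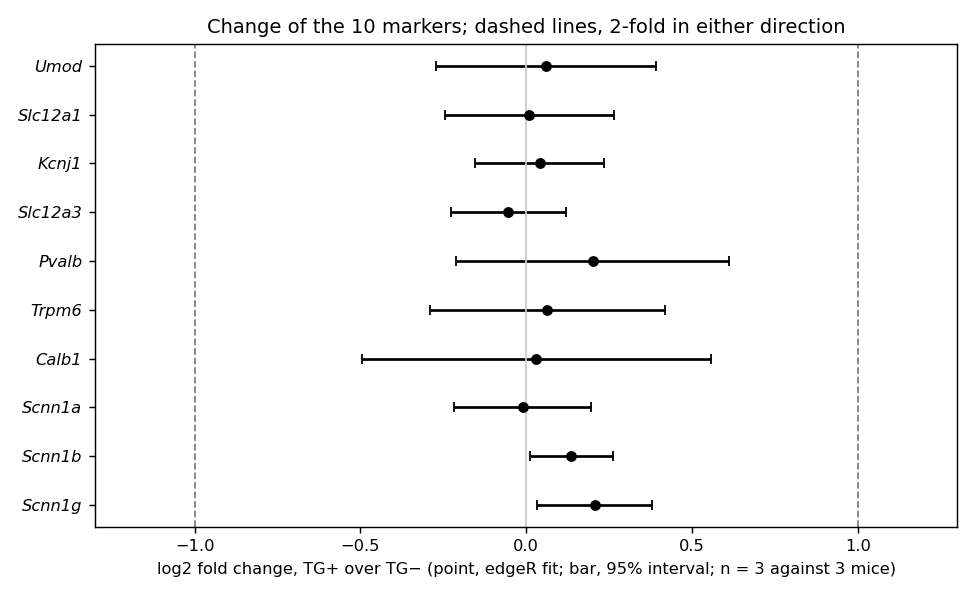
Log2 fold change of each of the 10 markers, TG+ over TG-, from the edgeR fit over 3 against 3 mice, on the horizontal axis. Points are estimates, bars 95% intervals and dashed lines a 2-fold change in either direction. All bars lie between the dashed lines, and only those of Scnn1b and Scnn1g do not cross 0.

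The thick ascending limb markers stood at like mean levels in both genotypes. For Umod and Slc12a1 the TG+ mice were spread more widely than the TG- mice, while for Kcnj1 the TG- mice were (SD 26.5 against 19.2 CPM, n = 3 each); these spreads were not tested. Umod (chromosome 7, 119462711 to 119479282, minus strand; this and the following gene positions are those of GENCODE M21 on GRCm38) encodes uromodulin. In CPM, counts scaled to the library size after TMM normalization, Umod stood at 1745 in 43-29, 2558 in 43-49 and 1754 in 43-75 among the TG+ mice, and at 1874 in 43-26, 2024 in 43-50 and 1909 in 43-76 among the TG- mice. The TG+ mice held both the highest and the lowest values, with 43-49 above all others, and the groups overlapped. The means were 2019 ± 467 CPM in TG+ and 1936 ± 78.3 CPM in TG- (SD, n = 3 each), a log2 fold change of 0.06 with a standard error of 0.14 (adjusted p = 0.795). The interval of the fold change was 0.829 to 1.31. Without 43-49 the log2 fold change of Umod was -0.15.

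Slc12a1 (chromosome 2, 125152505 to 125230002, plus strand) encodes NKCC2, the furosemide-sensitive cotransporter that brings sodium, potassium and chloride into the cells of the thick ascending limb. It stood at 491 CPM in 43-29, 670 in 43-49 and 526 in 43-75 among the TG+ mice, against 566 in 43-26, 542 in 43-50 and 568 in 43-76 among the TG- mice. As for Umod, 43-49 was highest, and the other TG+ mice were below all TG- mice. The log2 fold change was 0.01 ± 0.11 (SE, n = 3 against 3; adjusted p = 0.959), with an interval of the fold change of 0.844 to 1.20, and it was -0.14 without 43-49. Kcnj1 (chromosome 9, 32372493 to 32399197, plus strand) encodes ROMK, the channel that returns potassium to the lumen so that NKCC2 can continue to work, and that also secretes potassium in the collecting duct. It stood at 263 CPM in 43-29, 300 in 43-49 and 291 in 43-75, and at 273 in 43-26, 253 in 43-50 and 305 in 43-76. Both the lowest and the highest mouse were TG-, and the log2 fold change was 0.04 ± 0.08 (SE; adjusted p = 0.766), with an interval of the fold change of 0.899 to 1.18.

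**Figure D2:**
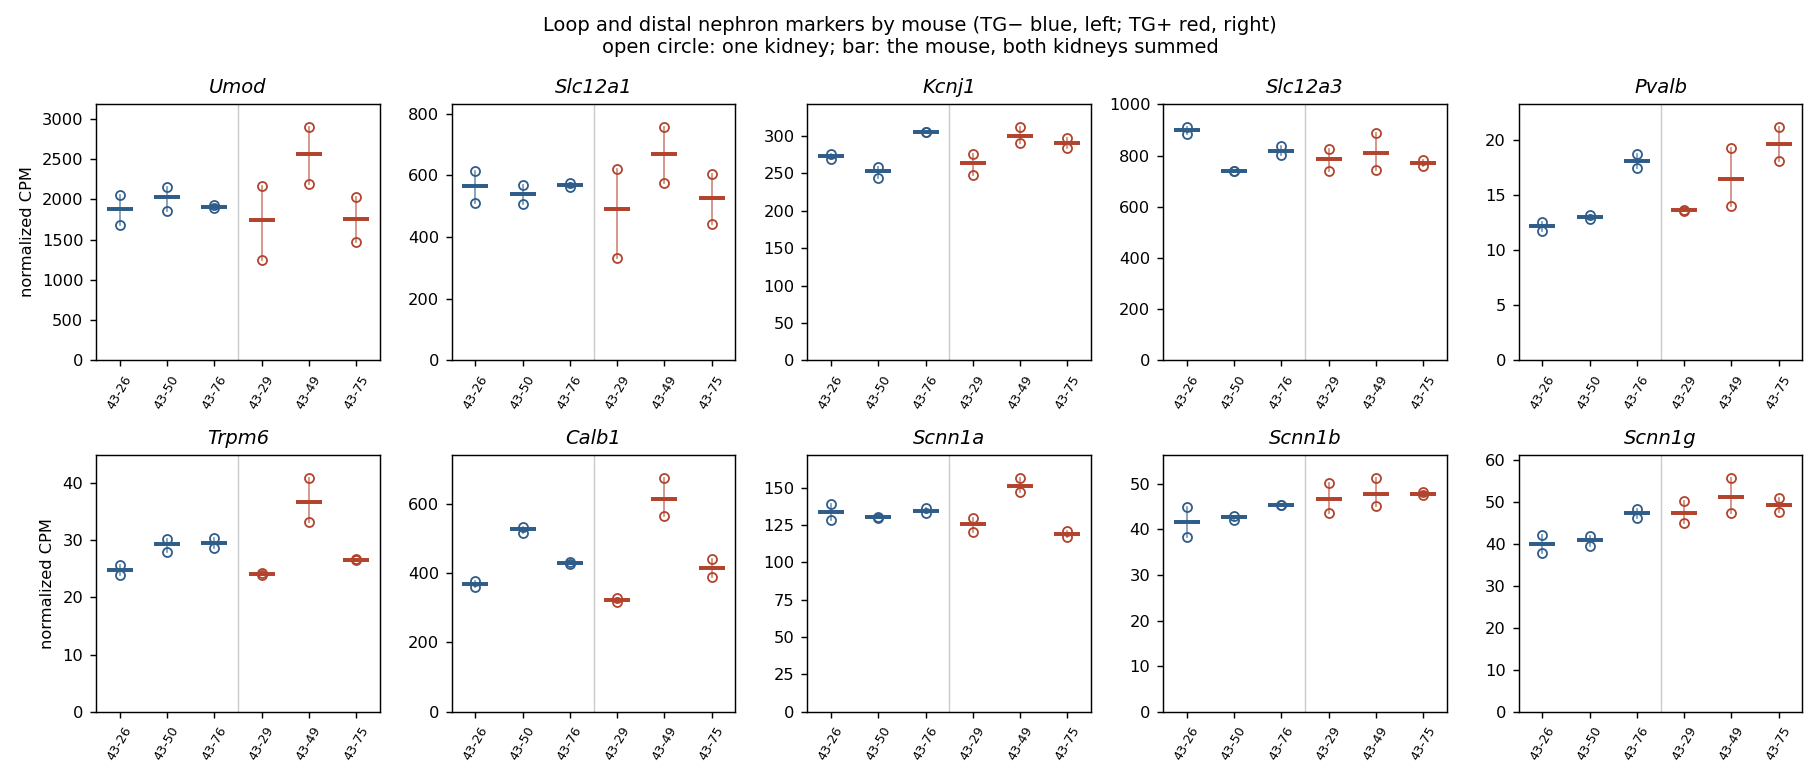
Level of each of the 10 markers in normalized CPM (vertical axes, each from 0) in the 3 TG- mice (blue, left) and the 3 TG+ mice (red, right). Open circles are single kidneys and bars are mice with both kidneys summed. In Umod and Slc12a1 the circles lie farthest apart in 43-29, whereas those of 43-76 lie close together. In Calb1 and Scnn1a the circles of a mouse lie closer together than the TG+ mice do.

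Umod and Slc12a1 differed between the 2 kidneys of the same mouse, and they did so together. Whether kidney 1 is the left or the right kidney is not given in the sources used here. In 43-29, Slc12a1 stood at 333 CPM in kidney 1 and 622 CPM in kidney 2, a 1.86-fold difference, and Umod at 1241 and 2166 CPM, a 1.75-fold difference. Only 13 of 10182 genes with at least 10 CPM (0.128%) differed as far as Slc12a1 between these kidneys, and the median absolute log2 difference over those genes was 0.06. The share of genes that differed as far as Slc12a1 was 0.835% in 43-49, 0.521% in 43-75, 2.62% in 43-26, 8.13% in 43-50 and 68.5% in 43-76. In the other mice the order was the reverse or absent. The log2 difference of Slc12a1 (kidney 1 over kidney 2) was 0.40 in 43-49, 0.45 in 43-75, 0.27 in 43-26, 0.17 in 43-50 and -0.03 in 43-76. That of Umod was 0.40, 0.46, 0.29, 0.21 and -0.02 in the same order, so that the pair had the same sign in 6 of 6 mice and nearly the same size. The differences were wider in the 3 TG+ mice than in the 3 TG- mice for both genes, which was not tested. Over the 12 libraries, each centred on its genotype, log2 CPM of Umod and Slc12a1 had a Pearson correlation of 0.96, given as a description since both kidneys of a mouse are among the points.

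Kcnj1 did not share this pattern. Its largest difference between the kidneys of a mouse was 1.12-fold, in 43-29, it had the sign of Slc12a1 in 2 of 6 mice, and its correlation over the same 12 libraries was 0.32 with Umod and 0.44 with Slc12a1. The 5 genes most like the mean of the 3 loop markers by the same correlation were Ptger3, a prostaglandin E2 receptor of the thick ascending limb (0.96), Gpx6 (0.95), Wfdc15b (0.95), Ppox (0.95) and Ppp1r1a, a protein phosphatase inhibitor (0.95), out of 10179 genes compared. In 43-29 the log2 difference between the kidneys was -0.75 for Ptger3, -0.97 for Gpx6 and -0.46 for Ppp1r1a.

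Most genes of the outer stripe and medulla lists differed between the kidneys in the direction of Umod and Slc12a1, and other lists did so in some mice. Of 5 measured genes of the proximal straight tubule in the outer stripe with at least 10 CPM, 4 were lower in kidney 1 of 43-29, whereas 5 of 5 were higher in kidney 1 of 43-49, of 43-75, of 43-26 and of 43-50, and 5 of 5 were lower in kidney 1 of 43-76. Cyp7b1, an oxysterol hydroxylase of that list, had log2 differences of -1.94 in 43-29, 1.78 in 43-49, 2.18 in 43-75, 1.73 in 43-26, 0.66 in 43-50 and -0.41 in 43-76, the sign of Slc12a1 in 6 of 6 mice. Slc22a7, an organic anion transporter, had -0.80 in 43-29, 0.68 in 43-49 and 0.81 in 43-75 and also kept the sign of Slc12a1 in 6 of 6 mice. Of 3 medulla genes at that level (the list holds 8), 3 were lower in kidney 1 of 43-29 and 3 higher in kidney 1 of 43-49, 43-75, 43-26 and 43-50, with 2 lower in 43-76. The 10 intercalated cell genes went the other way in 43-29, 43-49, 43-26 and 43-75, with 10 higher in kidney 1 of 43-29, 10 lower in kidney 1 of 43-49 and of 43-26, and 8 lower in 43-75. In 43-50 they were divided, 5 higher and 5 lower with a median log2 difference of 0.01, and in 43-76 7 were higher and 3 lower. Of 10 other loop genes, 8 were lower in kidney 1 of 43-29, 7 were higher in kidney 1 of 43-75, 8 in that of 43-50 and 6 in that of 43-76, but they were divided 5 to 5 in 43-49 and in 43-26, with medians of -0.04 and -0.0030. Of 10 other distal convoluted genes, 8 were lower in kidney 1 of 43-29 and 7, 6 and 7 higher in that of 43-75, 43-26 and 43-50, the direction of Slc12a1, while 7 were lower in 43-49 and 6 higher in 43-76. Ppp1r1b of that list, a protein phosphatase inhibitor, had log2 differences of -0.97 in 43-29, 0.56 in 43-49, 0.49 in 43-75, 0.24 in 43-26, 0.18 in 43-50 and 0.01 in 43-76. Of 15 proximal tubule genes, 12 were lower in kidney 1 of 43-49, 11 in that of 43-75 and 10 in that of 43-26, and 9 were higher in kidney 1 of 43-29, all opposite to Slc12a1, while 11 were higher in 43-50, as Slc12a1 was, and 11 in 43-76, where Slc12a1 was nearly level. Mouse 43-49, highest for Umod and Slc12a1, also had the most Cyp7b1, at 64.2 CPM, while the other 5 mice lay between 20.7 and 29.5 CPM. It also had the most Slc22a7 (90.6 CPM) and Slc22a13 (11.5 CPM) of all mice. Among the TG+ mice it was highest for Slc7a13 (673 CPM) and lowest for Slc5a10 (242 CPM). Acy3, the most abundant gene of the outer stripe list, was lowest in 43-49 (1100 CPM). The summed level of the 6 outer stripe genes was 2182 CPM in 43-49, the lowest, and at most 2263 CPM in the TG+ mice. The part of the outer medulla genes in the levels of the loop markers was not tested. Without kidney 1 of 43-29, an alternative chosen after seeing the data, 0 of 10 markers passed an adjusted p of 0.05 and the median log2 fold change of the markers was 0.09. The log2 fold change was then 0.16 for Umod (adjusted p = 0.390) and 0.12 for Slc12a1 (adjusted p = 0.365).

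**Figure D3:**
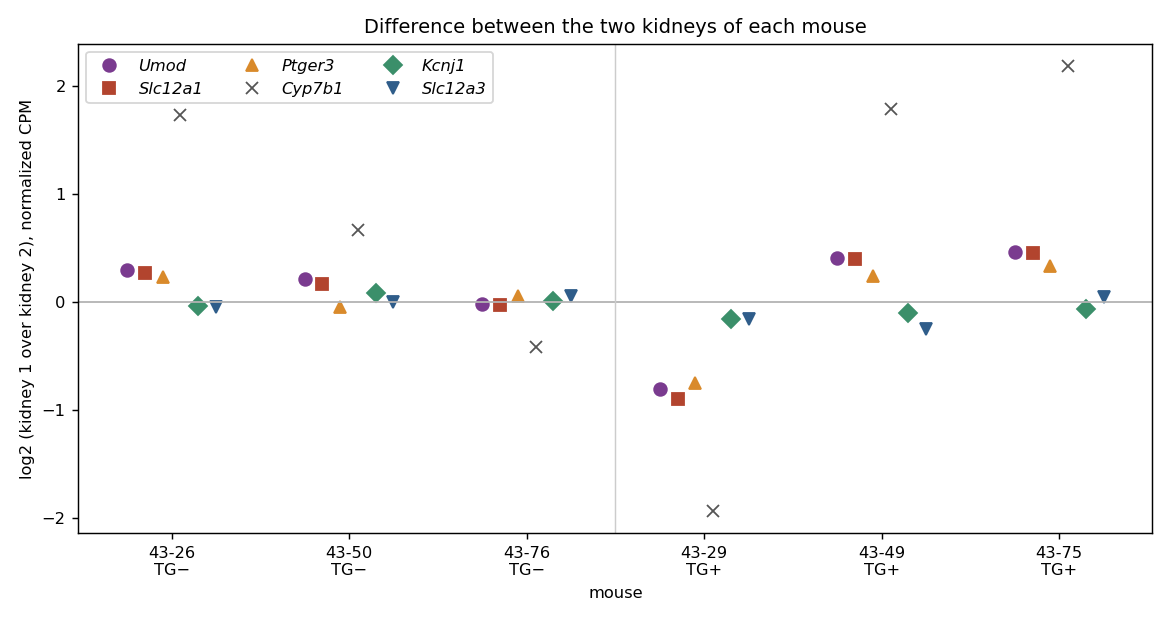
Log2 difference between kidney 1 and kidney 2 (vertical axis, normalized CPM) in each mouse, TG- at the left and TG+ at the right. Umod and Slc12a1 lie on top of each other, between -0.90 and 0.46, with Cyp7b1 (an outer stripe gene) on the same side of 0 in every mouse, while Kcnj1 and Slc12a3 stay between -0.25 and 0.08.

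Among the distal convoluted tubule markers, Slc12a3 was nearly even among the TG+ mice, with a log2 range of 0.07 against 0.53 for Pvalb and 0.60 for Trpm6, while among the TG- mice its range of 0.28 was close to the 0.25 of Trpm6. Slc12a3 (chromosome 8, 94329201 to 94366214, plus strand) encodes NCC, the thiazide-sensitive sodium chloride cotransporter. It stood at 788 CPM in 43-29, 809 in 43-49 and 772 in 43-75, against 898 in 43-26, 741 in 43-50 and 820 in 43-76. The TG+ mice lay inside the range of the TG- mice, with a log2 fold change of -0.05 ± 0.08 (SE; adjusted p = 0.646) and an interval of the fold change of 0.854 to 1.09. Trpm6 (chromosome 19, 18749983 to 18892511, plus strand), the magnesium channel of the apical membrane, stood at 24.1 CPM in 43-29, 36.7 in 43-49 and 26.5 in 43-75, and at 24.8 in 43-26, 29.3 in 43-50 and 29.5 in 43-76. Mouse 43-49 was again highest, and the log2 fold change of 0.06 ± 0.15 (SE; adjusted p = 0.799) became -0.14 without it.

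Pvalb (chromosome 15, 78191114 to 78206400, minus strand) encodes parvalbumin, a calcium-binding protein of the early distal convoluted tubule. It stood at 13.6 CPM in 43-29, 16.5 in 43-49 and 19.7 in 43-75, and at 12.2 in 43-26, 13.0 in 43-50 and 18.1 in 43-76. The groups overlapped, with 1 high mouse in each genotype, 43-75 and 43-76. The log2 fold change was 0.20 ± 0.18 (SE; adjusted p = 0.451), with an interval of the fold change of 0.863 to 1.53, and it was 0.05 without 43-75 and 0.39 without 43-76. In each of the 3 pairs of mice that the deposited table's name sets together (43-29 with 43-26, 43-49 with 43-50, 43-75 with 43-76) the TG+ mouse was the higher, and with these pairs as a block the adjusted p was 0.0808. Between the kidneys of 43-49, Pvalb differed by 1.38-fold, Trpm6 by 1.23-fold and Slc12a3 by 1.19-fold, all higher in kidney 2, in which Umod and Slc12a1 were lower. Slc12a3 had correlations of 0.05 with Pvalb and 0.07 with Trpm6 over the 12 libraries. The genes most like the mean of these 3 markers were Slc35g1 (0.92), 1700020I14Rik (0.92), D3Ertd751e (0.91), Klhdc7a (0.90) and Atf6 (0.88).

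Calb1 (chromosome 4, 15881264 to 15908064, plus strand), which encodes the calcium buffer calbindin-D28k of the late distal convoluted and connecting tubules, differed most among the TG+ mice, with a log2 range of 0.93, and by 0.52 among the TG- mice, where Pvalb had the wider range, 0.57. It stood at 323 CPM in 43-29, 615 in 43-49 and 415 in 43-75 among the TG+ mice, and at 368 in 43-26, 526 in 43-50 and 430 in 43-76 among the TG- mice. The groups overlapped fully, with 451 ± 149 CPM in TG+ and 441 ± 79.6 CPM in TG- (SD, n = 3 each). The log2 fold change was 0.03 ± 0.23 (SE; adjusted p = 0.938), and the interval of the fold change, 0.710 to 1.47, was the widest among the 10 markers. In contrast to Umod, the kidneys of most mice were close, with a median absolute log2 difference of 0.06 against 0.35 for Umod. Kidney 2 was higher by 1.19-fold in 43-49 and by 1.13-fold in 43-75. Calb1 was lowest in the first of the pairs named above and highest in the second in both genotypes. The order of the pairs was the same in both genotypes for 3 of the 10 markers (Umod, Pvalb and Calb1) and for 22.9% of all genes tested. Without 43-49 the log2 fold change of Calb1 was -0.26.

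No subunit of ENaC passed the tests across all genes. The mean of Scnn1a was nearly the same in both genotypes, and those of Scnn1b and Scnn1g were slightly higher in the TG+ mice. Scnn1a (chromosome 6, 125320659 to 125344943, plus strand), the α subunit, stood at 126 CPM in 43-29, 151 in 43-49 and 119 in 43-75, and at 134 in 43-26, 130 in 43-50 and 135 in 43-76. Its TG+ mice lay on both sides of the TG- mice, with a log2 fold change of -0.01 ± 0.09 (SE; adjusted p = 0.946) and an interval of the fold change of 0.860 to 1.15. Scnn1b (chromosome 7, 121865038 to 121918514, plus strand), the β subunit, stood at 46.6 CPM in 43-29, 47.8 in 43-49 and 47.8 in 43-75, and at 41.5 in 43-26, 42.6 in 43-50 and 45.4 in 43-76. Every TG+ mouse was above every TG- mouse. The means were 47.4 ± 0.718 and 43.2 ± 1.97 CPM (SD, n = 3 each), a log2 fold change of 0.14 ± 0.05 (SE), with an unadjusted p of 0.0373 and an adjusted p of 0.103 by the edgeR quasi-likelihood test.

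Scnn1g (chromosome 7, 121734479 to 121768475, plus strand), the γ subunit, stood at 47.5 CPM in 43-29, 51.3 in 43-49 and 49.4 in 43-75, and at 40.1 in 43-26, 41.0 in 43-50 and 47.3 in 43-76. The groups were again apart, but 43-76 was close to 43-29. The means were 49.4 ± 1.90 and 42.8 ± 3.95 CPM (SD, n = 3 each), a log2 fold change of 0.21 ± 0.07 (SE), with an unadjusted p of 0.0250 and an adjusted p of 0.0782. The exact permutation test, 2-sided, gave p = 0.1 for each of Scnn1b and Scnn1g, the smallest p that 3 against 3 mice allow. Thus 2 of 10 markers had every TG+ mouse above every TG- mouse, against 23.4% of all genes tested, and 0 of 10 had every TG+ mouse below, against 20.8%. With library size alone as the scale, which moves the median of all genes to a log2 fold change of 0.13, Scnn1b stood at 0.26 and Scnn1g at 0.33 and both passed an adjusted p of 0.05 (0.0146 and 0.0214), so whether they pass depends on the scaling. Without mouse 43-76 Scnn1g had an adjusted p of 0.0323, and Scnn1b did not pass.

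Scnn1b and Scnn1g also moved together between the kidneys of a mouse, with the same sign in every mouse and a correlation of 0.88 over the 12 libraries, against 0.18 for Scnn1a with Scnn1b and 0.35 for Scnn1a with Scnn1g. In 43-29 both were higher in kidney 1, by log2 differences of 0.20 and 0.16, where Umod and Slc12a1 were lower. In 43-49 both were lower in kidney 1, by log2 differences of -0.18 and -0.23, where Umod and Slc12a1 were higher. Over all mice, Scnn1b and Scnn1g each had the sign of Slc12a1 in 2 of 6, namely 43-50 and 43-76. The genes most like the mean of the 3 subunits were Lrrc57 (0.93), Ints9 (0.88), Pgam2 (0.87), Adgrl1 (0.86) and Kdelc1 (0.84). On the deposited RPKM scale, which adjusts for a gene length not given in the sources used here, Scnn1a exceeded Scnn1b by between 1.78-fold and 2.30-fold and Scnn1g by between 2.06-fold and 2.85-fold in the 6 mice.

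Within a mouse, ratios between markers of the same or neighbouring segments do not depend on the scaling of libraries. For 7 such ratios the groups overlapped in every case, and the exact permutation tests gave p from 0.2 to 0.9 (2-sided, adjusted p = 0.9 for each). The log2 ratio of Scnn1g to Scnn1a was -1.41 ± 0.15 in TG+ and -1.64 ± 0.12 in TG- (SD, n = 3 each), a difference of 0.23 with an exact p of 0.2. That of Pvalb to Slc12a3 differed by 0.25 (exact p = 0.5). The ratio of Umod to Slc12a1 was the steadiest, at 1.83 ± 0.10 in TG+ and 1.79 ± 0.10 in TG-, a difference of 0.04 (exact p = 0.6). That of Calb1 to Slc12a3 had the widest spread, at -0.86 ± 0.45 in TG+ and -0.90 ± 0.40 in TG- (exact p = 0.8).

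On the deposited RPKM scale, Umod was the most abundant marker in the cortex slice and Trpm6 the least. The mean deposited RPKM of the TG- mice was 789 for Umod, 251 for Slc12a3, 78.9 for Calb1, 45.6 for Kcnj1, 35.4 for Slc12a1, 19.2 for Scnn1a, 8.75 for Scnn1b, 7.60 for Pvalb, 7.24 for Scnn1g and 4.33 for Trpm6. Umod was 3.15-fold above Slc12a3, and Slc12a3 was 3.18-fold above Calb1. Neighbours in this order had no overlap between TG- mice except Scnn1b with Pvalb and Pvalb with Scnn1g. The order depends on the length used: with the summed exon length of GENCODE, 6 of 10 markers kept their rank, Slc12a1 moved from rank 5 to rank 2 and Slc12a3 from rank 2 to rank 5. In the TG- mice the mean normalized CPM of Slc12a1 divided by its mean deposited RPKM was 15.8, which read as kb is 2.74 times its summed exon length. For Slc12a3 this quotient was 3.27, or 0.294 times its summed exon length. For Scnn1a, Scnn1b and Scnn1g it was 1.67, 1.87 and 1.98 times the summed exon length. The quotient also holds the difference in scaling between CPM and the deposited RPKM, so it is not a transcript length.

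Other genes of the same segments were taken from lists written down with earlier results of these data known, and their counts can be read against the 15.4% of all genes that were higher and the 10.9% that were lower at an adjusted p below 0.05. Of 13 tested genes of the thick ascending limb other than the markers (Cldn14 did not pass the filter), 2 rose and 1 fell at an adjusted p below 0.05, with a median log2 fold change of 0.01. Tfcp2l1, a transcription factor of distal epithelia, rose from 530 ± 27.8 to 708 ± 62.6 CPM (SD, n = 3 each; log2 fold change 0.42, adjusted p = 0.00712), Enox1 rose by a log2 fold change of 0.44 from a low level of 1.56 CPM, and Sorl1, a sorting receptor that acts on NKCC2, fell with a log2 fold change of -0.25 (adjusted p = 0.0247). Egf, the most abundant gene of that list, had a log2 fold change of 0.01 and stood, like Umod, highest in 43-49, at 1830 CPM. Of 4 macula densa genes, 0 passed, with a median of 0.21 and a log2 fold change of 0.38 for Avpr1a, the most abundant. Of 11 other genes of the distal convoluted tubule, 2 fell and 0 rose, with a median of -0.06: Kcnj16, a basolateral potassium channel subunit (log2 fold change -0.30, adjusted p = 0.00908), and Fxyd2, the γ subunit of the sodium pump (-0.33, adjusted p = 0.00891), both of which the proximal tubule also expresses. Of 9 calcium transport genes, 1 fell, the parathyroid hormone receptor Pth1r (-0.40, adjusted p = 0.00708), which is also a proximal tubule gene, and the median was 0.02. S100g, which encodes calbindin-D9k, did not pass, with a log2 fold change of 0.17.

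Regulators of salt transport and of ENaC and genes of the collecting duct had calls in both directions, to be read against the same shares of all genes. Of 15 regulators, 1 rose and 1 fell, with a median of -0.07, and Wnk1, the most abundant of them, had a log2 fold change of -0.06 (adjusted p = 0.687). Sgk1, the aldosterone-induced kinase that raises ENaC at the cell surface, stood at 105, 124 and 65.0 CPM in 43-29, 43-49 and 43-75 and at 59.2, 57.6 and 51.2 CPM in 43-26, 43-50 and 43-76, with every TG+ mouse above every TG- mouse (log2 fold change 0.80 ± 0.21, SE; adjusted p = 0.0248). Usp2, a deubiquitinating enzyme, fell with a log2 fold change of -0.58 (adjusted p = 0.00979). Of 9 proteases and protease inhibitors that act on ENaC, 2 rose and 2 fell, with a median of 0.02. Prss8, which encodes prostasin, a protease that cleaves the γ subunit, fell from 384 ± 39.2 to 272 ± 11.3 CPM (log2 fold change -0.50, adjusted p = 0.00412). St14, which encodes matriptase, rose with 0.55 (adjusted p = 0.00136), the inhibitor Serpine2 rose with 0.80 (adjusted p = 0.00271), and Plg fell with -1.27 from 0.341 CPM. The most abundant, Plau, had a log2 fold change of -0.30 (adjusted p = 0.233). Of 11 principal cell genes, which include Scnn1b and Scnn1g, 1 rose and 1 fell, with a median of 0.09. The aquaporin Aqp4 rose 9.09-fold, from 4.04 ± 0.758 to 36.8 ± 18.1 CPM (SD, n = 3 each; adjusted p = 0.000646), and Aqp3 fell with -0.19 (adjusted p = 0.0473). Between the kidneys of a mouse Aqp4 had the sign of Slc12a1 in 6 of 6 mice. Its log2 differences were 0.98 in 43-49 and 1.47 in 43-26, where the medians of the principal cell genes were -0.13 and -0.14. In 43-50 both were above 0. Which cells of the slice held the Aqp4 RNA was not tested. Aqp2, the vasopressin-regulated water channel, had a log2 fold change of 0.34 (adjusted p = 0.103), and Hsd11b2, the most abundant, one of 0.08 (adjusted p = 0.425). Of 10 intercalated cell genes, Aqp6 alone rose (0.35, adjusted p = 0.00933), and the most abundant, Slc26a4, had a log2 fold change of 0.05.

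Of these 15 genes at an adjusted p below 0.05 in the loop, distal and collecting duct lists, 10 stayed below it with any 1 mouse left out (Tfcp2l1, Kcnj16, Fxyd2, Pth1r, Usp2, Prss8, St14, Serpine2, Aqp4 and Aqp6). Sorl1 lost its call without 43-75, 43-50 or 43-76, and also without kidney 1 of 43-29 (adjusted p = 0.0590), Sgk1 without any mouse but 43-75, Plg without any but 43-26, Aqp3 without any but 43-49 and Enox1 without any single mouse, with highest adjusted p over all alternatives of 0.145, 0.0882, 0.0904, 0.462 and 0.375.

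**Figure D4:**
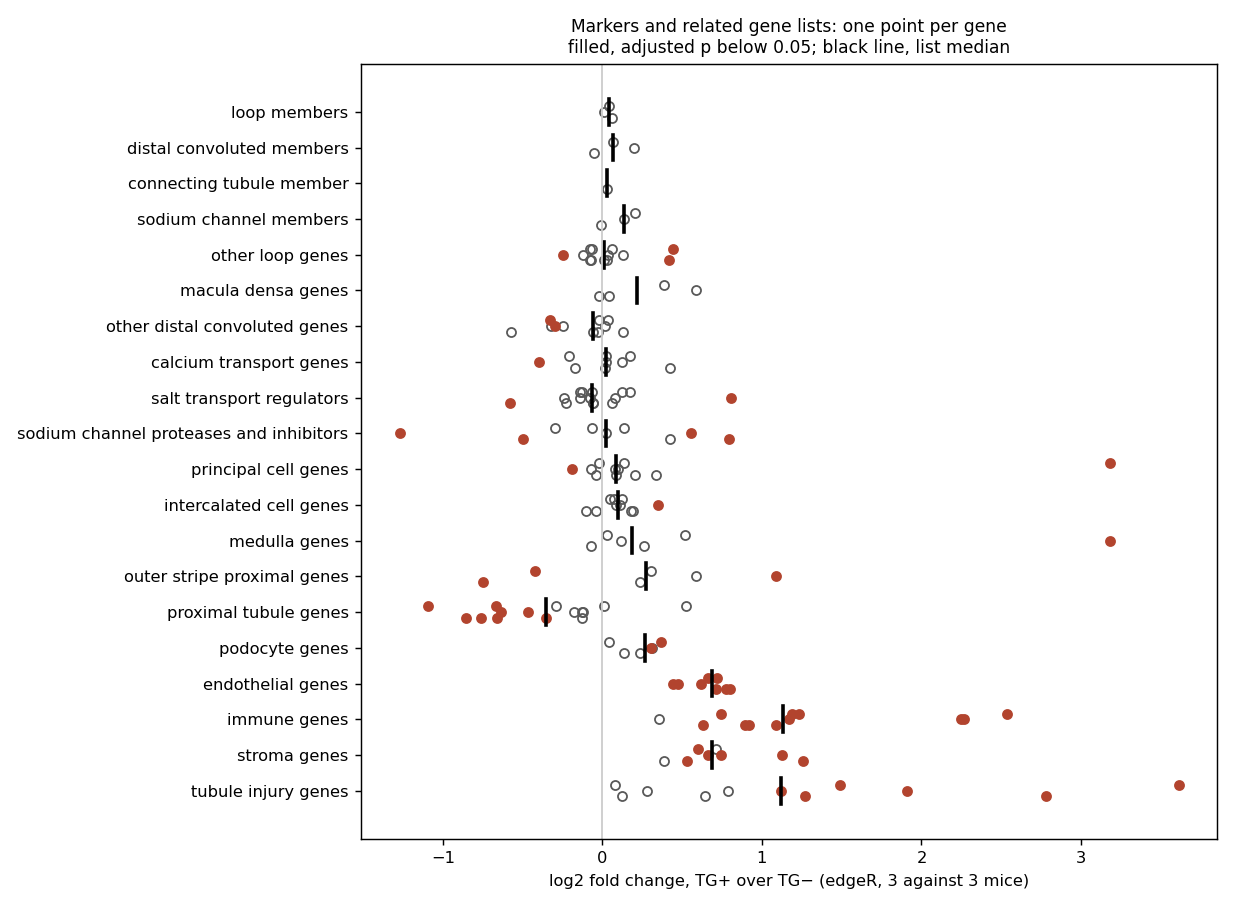
Log2 fold change (horizontal axis, TG+ over TG-) of each tested gene in the marker groups and the related lists, with genes at an adjusted p below 0.05 filled and the list median as a black line. The 10 markers in the upper 4 lines are open and lie between -0.05 and 0.21, whereas most proximal tubule points lie below 0 and all endothelial, immune, stroma and injury points above 0.

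The markers can be set beside the other cell types of the slice. The summed level of the 3 loop markers was 2499 to 3528 CPM in TG+ mice and 2713 to 2818 CPM in TG- mice, and that of the 3 ENaC subunits 216 to 250 and 214 to 227 CPM, so that both overlapped between genotypes. The sums of the other loop genes and of the intercalated cell genes also overlapped. Those of the 11 other distal convoluted genes, Kcnj16 and Fxyd2 among them, did not (1947 to 2125 CPM in TG+, 2367 to 2679 CPM in TG-). Nor did those of the 11 principal cell genes, Aqp4 among them (536 to 611 and 484 to 507 CPM). The summed level of 15 proximal tubule genes was 20769 to 22785 CPM in TG+ and 27856 to 31672 CPM in TG-, and their median log2 fold change was -0.35. The summed level of 12 immune genes was 1143 to 1824 CPM in TG+ and 324 to 407 CPM in TG-, that of 8 endothelial genes 680 to 736 and 397 to 517 CPM, that of 8 stroma genes 288 to 388 and 183 to 214 CPM, and no gene of these lists was at 0 in all mice. Of 6 podocyte genes 2 rose, of 6 tested medulla genes 1 (Aqp4, also counted above), and of 6 outer stripe genes 1 rose and 2 fell, beside the 15.4% of all genes higher and 10.9% lower, and the summed level of the outer stripe genes was 2182 to 2263 CPM in TG+ and 2849 to 3034 CPM in TG-. Of 11 tubule injury genes, 6 rose and 0 fell. CPM are shares of all reads, and the part of these other cell types in the small differences of Scnn1b and Scnn1g was not tested.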

How the data were processed

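Libraries were made by the authors with a TruSeq kit from RNA of kidney cortex and sequenced as 51-bp single-end reads; the labels name the mouse build mm9, while the counting program, annotation release and strand setting are not given in the sources used here. The authors deposited 1 table with, for each of 12 libraries, raw read counts per Ensembl gene, RPKM (scaled by the authors after 1 had been added to each count) and log2 RPKM. The deposited log2 values were only compared with the deposited RPKM. The 14 columns of the authors' group means and comparisons were not used. Symbols and positions came from GENCODE M21 (GRCm38), which matched 32642 of 37681 identifiers (86.6%).

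Counts of both kidneys were summed per mouse, filtered with filterByExpr, normalized by TMM (factors 0.944 to 1.07) and tested with the quasi-likelihood test of edgeR 4.0.16 under R 4.3.3; p-values were adjusted by Benjamini-Hochberg over the 19399 genes kept. The procedure was tested on simulated data. Single genes and ratios were also tested by exact permutation over 20 assignments of mice. Alternatives were other scalings, no filter, DESeq2 1.42.0, single kidneys, a replicate block, each mouse left out and other thresholds. Depth was 48052131 to 60506785 reads per mouse.

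The members and the 21 lists were chosen with earlier results of these data known. Named are the 10 markers, from each list up to 4 genes past an adjusted p of 0.05 with the smallest p and the most abundant gene (lists of other cell types and regions are given by counts and sums only), and the 5 genes most correlated with each marker group; the kidney comparisons, the other genes named in them, Aqp2, S100g, Hif1a and the motifs were chosen after values were seen. The listed gene Rhbg was not analysed here.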

Additional observations from a re-analysis of the deposited data

How the results depend on the processing

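No marker passed the study threshold under any of the settings run, and 0 of 10 passed an adjusted p below 0.05 except with library size alone (2 markers), with each kidney as its own library (2), and with mouse 43-76 left out (1, range 0 to 1 over the mice left out). The 2 markers were Scnn1b (log2 fold change 0.26 with library size alone and 0.15 with kidneys as libraries) and Scnn1g (0.33 and 0.22); kidneys of 1 mouse are not independent. Library size alone moved the median of all genes from 0.01 to 0.13, and turned Slc12a3 to 0.065 and Scnn1a to 0.11. Slc12a1 turned to -0.0039 with upper-quartile factors, -0.0028 with the median gene centred and -0.0036 with DESeq2. With kidney 1 alone Slc12a1 was -0.036, Kcnj1 -0.016, Trpm6 -0.037, Calb1 -0.048 and the Slc12a3/Slc12a1 log2 ratio 0.0078; with kidney 2 alone Slc12a3 was 0.015 and Scnn1a 0.012. Without kidney 1 of 43-29, chosen after seeing the data, Scnn1a was 0.0059 and the Kcnj1/Slc12a1 ratio -0.045. Leaving out each mouse gave ranges of -0.10 to 0.14 for the median of the markers, -0.15 to 0.14 for Umod, -0.14 to 0.088 for Slc12a1, -0.024 to 0.11 for Kcnj1, -0.12 to 0.015 for Slc12a3, 0.048 to 0.39 for Pvalb, -0.14 to 0.17 for Trpm6, -0.26 to 0.21 for Calb1, -0.13 to 0.046 for Scnn1a and 0.16 to 0.28 for Scnn1g, and for the log2 ratios -0.011 to 0.14 (Kcnj1/Slc12a1), -0.0093 to 0.095 (Umod/Slc12a1), -0.14 to 0.069 (Slc12a3/Slc12a1), 0.075 to 0.43 (Pvalb/Slc12a3), -0.068 to 0.21 (Trpm6/Slc12a3) and -0.19 to 0.26 (Calb1/Slc12a3); the lowest median was without 43-49. Of the other named genes, Kcnj16, Sorl1 and Aqp3 lost their calls with library size alone, Enox1 and Aqp3 with the block and with no filter, Enox1 and Plg with DESeq2, Enox1 with kidney 1 alone, Enox1, Sorl1 and Aqp3 with kidney 2 alone, and Sorl1 and Aqp3 without kidney 1 of 43-29. Egf was -0.0042 with upper-quartile factors, -0.0034 with the median gene centred, -0.031 with kidney 1 alone, -0.022 with the block and -0.0045 with DESeq2, and Wnk1 was 0.060 with library size alone; with a mouse left out Egf lay between -0.22 and 0.15, Wnk1 between -0.17 and 0.024 and Slc26a4 between -0.033 and 0.15. The order per length kept 6 of 10 ranks with annotated exon length. The cause of these turns was not tested. With the replicate block of the 3 mouse pairs, 0 of 10 markers passed an adjusted p of 0.05, the median was 0.04, Slc12a1 was -0.0034, Calb1 -0.0049 and Pvalb 0.20 (adjusted p = 0.0808, from 0.451 without it). The correlations of deviations in the same pair were 0.39, 0.33 and -0.02, while those across pairs ran from -0.39 to 0.03. Mouse 43-75 did not correlate best with its own pair. The paper calls the TG- mice littermates, but whether each pair shared a litter or a batch is not given in the sources used here. The main test leaves the pairs out, and the block is given as an alternative.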
